A study of Homo sapiens with 29 samples.

Results

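The genes described here encode the small matrix proteoglycans and the enzymes that make hyaluronan. Decorin (DCN), lumican (LUM), biglycan (BGN), fibromodulin (FMOD), osteoglycin (OGN) and PRELP belong to the small leucine-rich proteoglycans (SLRPs). Versican (VCAN) is a large hyaluronan-binding proteoglycan, and HAS1, HAS2 and HAS3 are the hyaluronan synthases. These 10 genes were chosen by family from 28266 genes in the count table, with earlier results of these data known. SLRPs bind collagen fibrils and set their diameter and spacing, and some of them, decorin and biglycan among them, also bind growth factors of the TGF-β family. Hyaluronan is a sugar chain without a protein core that is spun out at the plasma membrane, where versican, link proteins and the receptor CD44 bind it. Fibroblasts are the main source of these components in the lung interstitium.

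The cells were IMR90 ER:RAS, an established line of human lung fibroblasts with a fusion of the estrogen receptor and oncogenic RAS that 4-hydroxytamoxifen (4OHT) switches on. Per the labels, all groups carried the fusion, and all were collected at day 7. DMSO_siNT cells received the solvent and a non-targeting siRNA, 4OHT_siNT cells received 4OHT, which drives them into oncogene-induced senescence, and the same non-targeting siRNA, and 4OHT_siSMARCA4 cells received 4OHT and siRNA against SMARCA4. SMARCA4 (BRG1) is an ATPase of the SWI/SNF chromatin remodelling complex. Each arm used siRNAs numbered 2 and 4. The fusion had been brought in by retrovirus, and siRNA was given 1 day before 4OHT. Each group had 6 libraries of RNA sequencing, with total counts from 9657309 to 13448183 (DMSO_siNT), from 13237672 to 15407710 (4OHT_siNT) and from 11382143 to 18039313 (4OHT_siSMARCA4).

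Samples carry a set name ending in V or VM, whose meaning is not stated. The V sets gave 3 of the DMSO_siNT libraries and 3 of the knockdown libraries. The VM sets gave the other 3 DMSO_siNT libraries, all 6 of 4OHT_siNT and 2 of the knockdown, whose last library no sample title matched. That library is called unlabelled here. Its column name gives siRNA 2 and set 1VM, which no sample title joins for the knockdown, so values within VM sets leave it out unless it is said to be added. The library labelled DMSO_siNT 4-2V (siRNA 4, set 2V) stood apart. It had the fewest counts (9657309) and the most genes detected (17915), and ESR1, whose sequence is part of the fusion, was at 29.5 CPM, the count scaled to library size, against 1034 to 1316 CPM in the other 5 DMSO_siNT libraries, so its ESR1 level goes against its label as cells with the fusion. The changes of the members tested on 4OHT and the counts of the gene lists are therefore also given without it. SMARCA4 itself was at 301 ± 20.9 CPM in 4OHT_siNT and 99.03 ± 27.6 CPM in 4OHT_siSMARCA4 (SD, n = 6), 32.9% of the senescent level (edgeR adjusted p = 1.3e-06). With siRNA 4 alone the log2 fold change was −1.66 and not called (adjusted p = 0.092), in a fit that called 4 genes of the whole table. With siRNA 2 alone it was −1.57 and called (adjusted p = 2.2e-05). Nothing in the labels says that the libraries of a group came from separate cultures, so p-values measure only the spread between these libraries.

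Senescence went with a near loss of decorin mRNA and a lower lumican level, whereas SMARCA4 knockdown in senescent cells went with lower biglycan and fibromodulin. Of the 10 genes, 7 had enough counts to be tested and OGN, PRELP and HAS1 did not. Calls were made at a Benjamini-Hochberg adjusted p below 0.05 over 13136 genes tested with edgeR. Comparing 4OHT_siNT with DMSO_siNT called 4 of the 7, where 52.8% of all genes tested were called. DCN, LUM and HAS3 were lower, where 28.9% of all genes were, and VCAN was higher, where 23.9% of all genes were. Comparing 4OHT_siSMARCA4 with 4OHT_siNT called 3 of the 7, all lower, namely BGN, FMOD and DCN. In that comparison 10.6% of all genes were called, 4.99% higher and 5.65% lower. Without DMSO_siNT 4-2V it called 24.6% of all genes, 11.7% higher and 12.9% lower, and 4 of the 7 members, all lower. These were BGN, FMOD, DCN and LUM (edgeR adjusted p = 0.00087, 0.00036, 0.0089 and 0.014). Comparing 4OHT_siSMARCA4 with DMSO_siNT called 4 of the 7, all lower, namely DCN, LUM, BGN and FMOD. There 50.5% of all genes were called, 23.3% higher and 27.3% lower. The 3 comparisons share libraries, so their values are given side by side and are not independent. The share of members called in the comparisons with DMSO_siNT was near that of all genes.

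**Figure D1:**
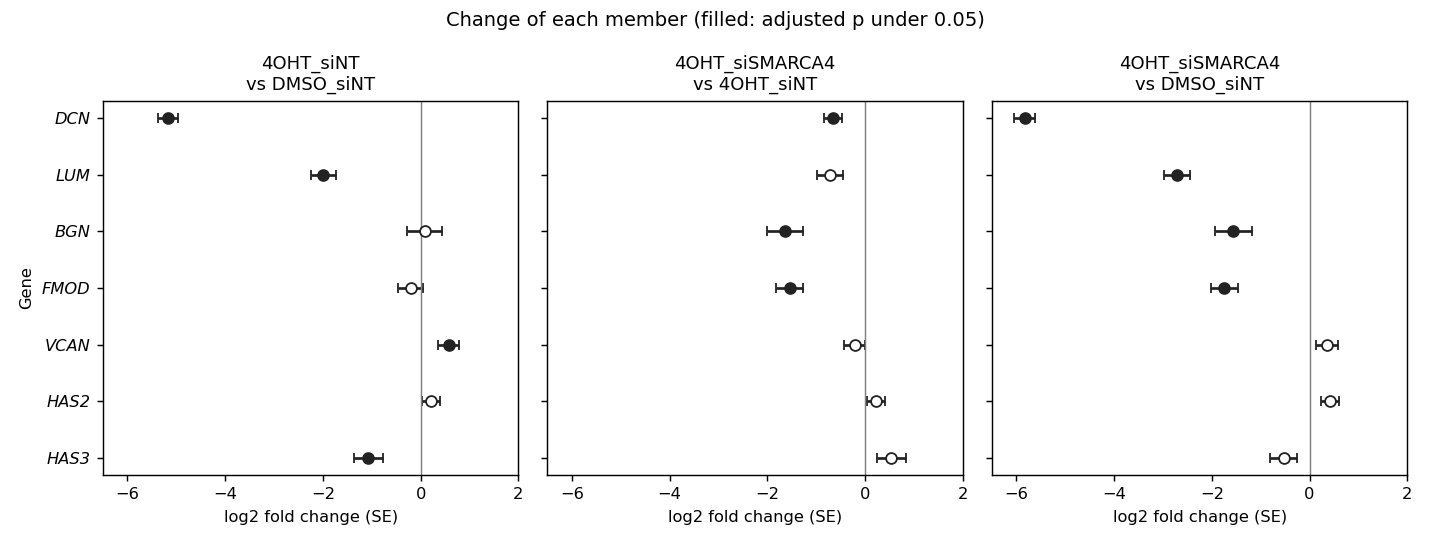
Log2 fold change of each of the 7 tested genes in the 3 comparisons (x axis, bars show the SE), with filled points at an adjusted p under 0.05. DCN moved by −5.17 on the first panel and −0.66 on the second, whereas BGN and FMOD lay near 0 on the first panel and at −1.64 and −1.55 on the second.

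Decorin is a collagen-binding SLRP with a single glycosaminoglycan chain and a known ligand of TGF-β. Its gene lies at chromosome 12, 91140484 to 91183217, minus strand (GENCODE version 44, GRCh38; the counts themselves carry no coordinates). In DMSO_siNT, DCN was at 491 CPM at the lowest, 592 CPM at the median and 893 CPM at the highest. In 4OHT_siNT it was at 14.9, 18.001 and 18.7 CPM at the lowest, median and highest. Every senescent library thus lay far below every growing one. The mean fell from 625 ± 151 to 17.4 ± 1.54 CPM (SD, n = 6), leaving 2.78% of the growing level, a log2 fold change of −5.17 ± 0.21 (SE; edgeR adjusted p = 5.3e-13). Without the library DMSO_siNT 4-2V the log2 fold change was −5.15, and within VM sets it was −4.88. In 4OHT_siSMARCA4 the lowest, median and highest levels of DCN were 7.09, 10.7 and 15.5 CPM. The highest of these lay above the lowest 4OHT_siNT library, so the groups overlapped. The mean was 11.006 ± 3.31 CPM (SD, n = 6), 63.2% of that in 4OHT_siNT, with a log2 fold change of −0.66 ± 0.18 (SE; edgeR adjusted p = 0.024). This second call was lost without the knockdown library 4-2VM (−0.57, adjusted p = 0.058) and with either siRNA alone (siRNA 2, −0.29, adjusted p = 0.32, and siRNA 4, −1.15, adjusted p = 0.092), over a range of 0.00501 to 0.323 in all alternatives. The siRNA 4 fit called 4 genes of the whole table. Against growing cells, knockdown left 1.76% of DCN (log2 fold change −5.83 ± 0.21, adjusted p = 9.8e-14), and the log2 fold change was also −5.83 without DMSO_siNT 4-2V.

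Lumican is the keratan sulfate-type SLRP best known from the cornea and also made by fibroblasts. Its gene lies next to DCN, at chromosome 12, 91102629 to 91111494, minus strand. LUM was at 60.4, 85.5 and 168 CPM in DMSO_siNT (lowest, median and highest) and at 19.5, 24.7 and 26.5 CPM in 4OHT_siNT. The groups did not overlap, and the highest growing value came from the library 4-2V. The mean fell from 93.6 ± 38.5 to 23.5 ± 3.29 CPM (SD, n = 6), to 25.1% of the growing level. On the log2 scale it fell by 1.99 ± 0.26 (SE; edgeR adjusted p = 2.9e-06), and the value was −1.74 without DMSO_siNT 4-2V and −1.71 within VM sets. LUM thus kept more of its growing level than DCN. Under knockdown LUM was at 7.09, 15.8 and 20.04 CPM, and the upper libraries lay within the range of 4OHT_siNT. Its log2 fold change of −0.72 ± 0.26 (SE) was not called (adjusted p = 0.085). LUM was called with DESeq2 (adjusted p = 0.048), within VM sets (−0.84, adjusted p = 0.041, but −0.62 and adjusted p = 0.061 with the unlabelled library added), with only the groups compared in the fit (adjusted p = 0.022) and without DMSO_siNT 4-2V (adjusted p = 0.014), over a range of 0.0138 to 0.229 in all alternatives. KERA and EPYC, the other SLRP genes of this cluster, had 0 counts and at most 1 count in any library.

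**Figure D2:**
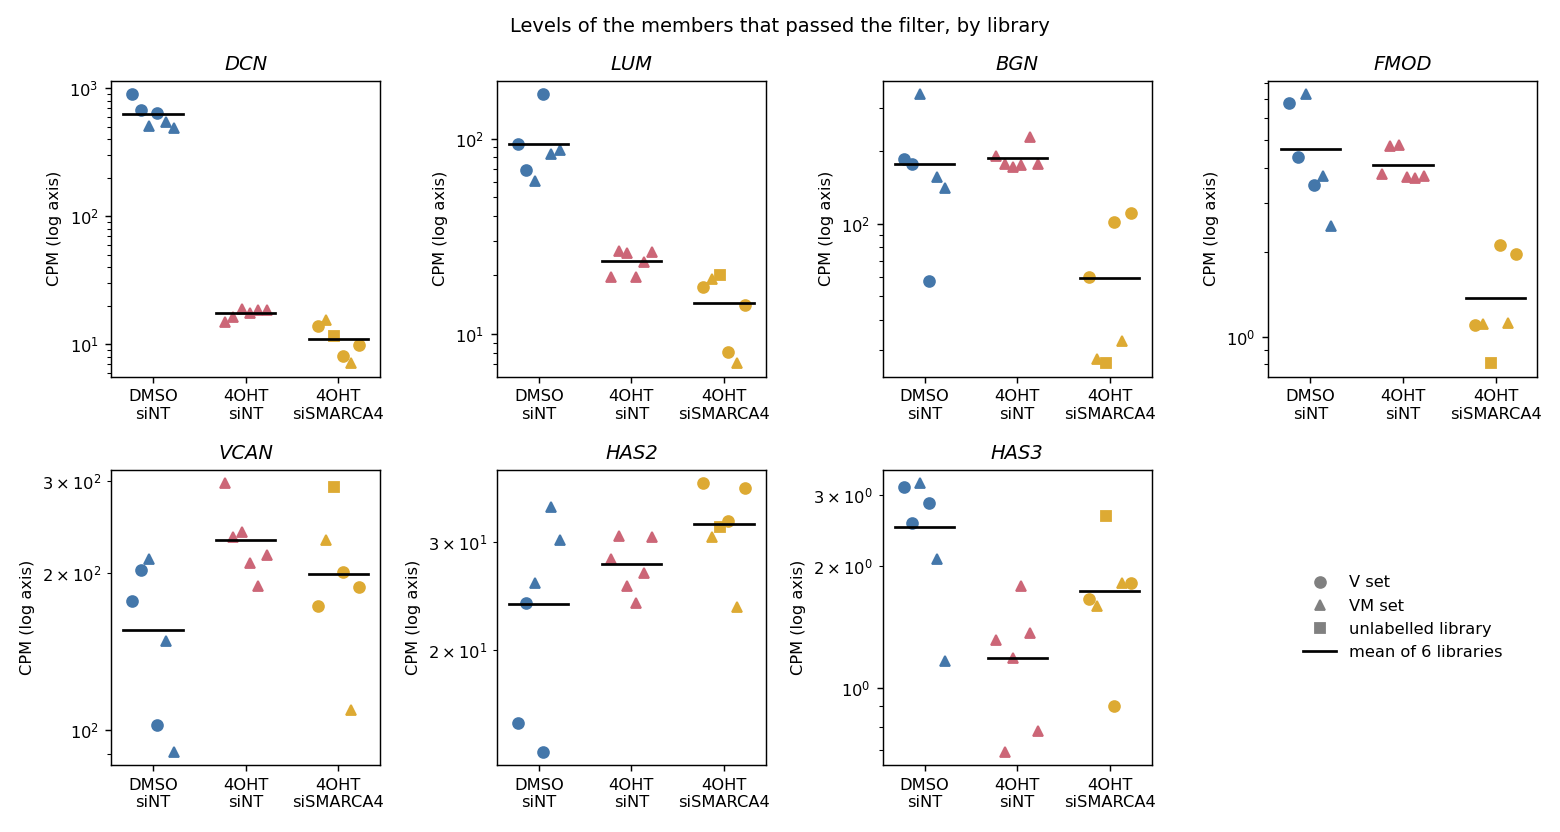
Level of each tested gene in every library (y axis, CPM on a log axis) in the 3 groups, with circles for V sets, triangles for VM sets, a square for the unlabelled library and a line at the mean of 6. DCN fell from a mean of 625 to 17.4 CPM on 4OHT without overlap, and the BGN values of the knockdown group separate into 3 from 26.4 to 32.6 CPM and 3 from 60.1 to 110 CPM.

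Biglycan is the closest relative of decorin and carries a pair of glycosaminoglycan chains. BGN (chromosome X, 153494980 to 153509546, plus strand) was at 57.6, 166 and 343 CPM in DMSO_siNT, lowest, median and highest. In 4OHT_siNT it was at 172, 176 and 229 CPM. The senescent values all lay inside the range of the growing ones, which was set by 4-2V at the low end and 2-2VM at the high end. The log2 fold change on 4OHT was 0.078 ± 0.37 (SE) and was not called (edgeR adjusted p = 0.87). It was −0.096 without DMSO_siNT 4-2V and −0.19 within VM sets, so the sign depends on the libraries used. Under knockdown BGN was at 26.4, 46.3 and 110 CPM, and every library lay below the lowest 4OHT_siNT library. The mean fell from 186 ± 21.96 to 59.7 ± 37.9 CPM (SD, n = 6), 32.1% of the level in 4OHT_siNT. This is a log2 fold change of −1.64 ± 0.38 (SE; edgeR adjusted p = 0.0081). It was −2.65 within VM sets (adjusted p = 3.7e-05) and −2.71 with the unlabelled library added. With siRNA 4 alone it was −1.27 and not called (adjusted p = 0.38), a fit in which 4 genes of the whole table were called. Over all alternatives the adjusted p ran from 1.21e-06 to 0.383. Against DMSO_siNT the change was −1.56 ± 0.38 (adjusted p = 0.0017), but −0.63 (adjusted p = 0.38) within V sets, −0.52 (adjusted p = 0.40) with siRNA 4 alone, −2.84 within VM sets and −1.74 without DMSO_siNT 4-2V. The V sets and the siRNA 4 arm of DMSO_siNT both include 4-2V, at 57.6 CPM. The other DMSO_siNT libraries were at 186 and 177 CPM in V sets and at 156 and 140 CPM with siRNA 4.

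The knockdown libraries differed in BGN by set. The 3 V libraries were at 60.1, 102 and 110 CPM, and the 2 VM libraries were at 27.6 and 32.6 CPM, with the unlabelled library at 26.4 CPM. All V values were thus above all others. The SMARCA4 level left, as a percentage of the mean in 4OHT_siNT, was 41.3%, 46.7% and 30.8% in these V libraries. The 2 knockdown VM sets kept 28.9% and 23.3%, and the unlabelled library kept 26.1%. The 4OHT_siNT libraries analysed were all from VM sets, so within V sets BGN under knockdown could be set only against DMSO_siNT. The part of the set or of the remaining SMARCA4 in the BGN values was not tested.

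**Figure D3:**
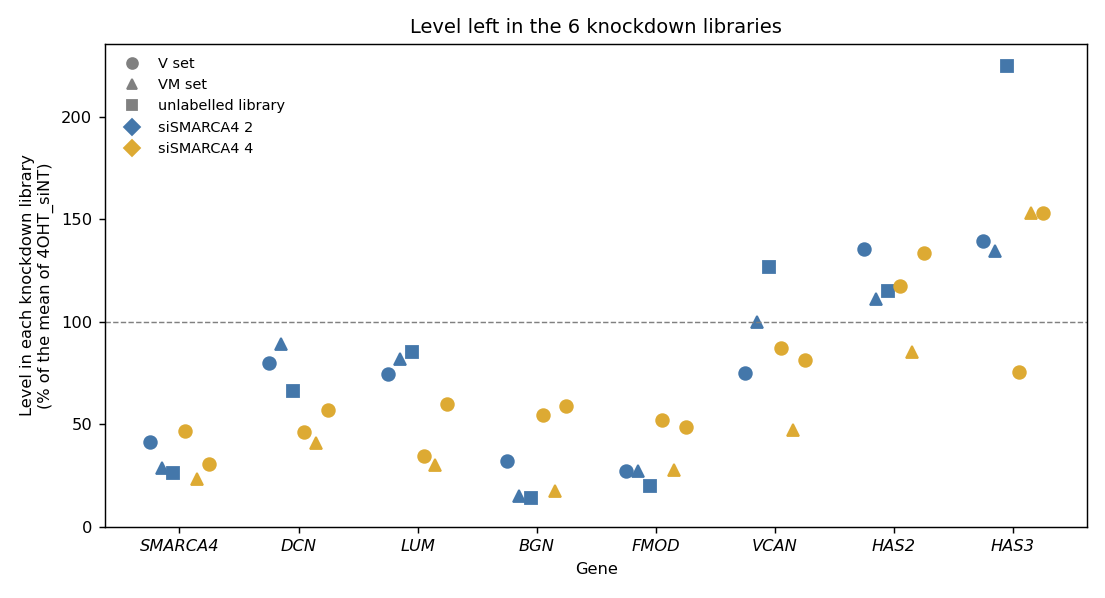
Level of SMARCA4 and of each tested gene in the 6 knockdown libraries (y axis, percent of the mean of 4OHT_siNT, dashed line at 100%), with the shape giving the set and the colour giving the siRNA number. BGN and FMOD lay at or below 59.1% in every library, and DCN and LUM were lower with siRNA 4 (at most 59.96%) than with siRNA 2 (at least 66.3%). The differences of DCN and LUM between the siRNAs were not called (edgeR adjusted p = 0.38 and 0.42).

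Fibromodulin is a keratan sulfate-bearing SLRP that binds type I collagen. FMOD (chromosome 1, 203340628 to 203351758, minus strand) was expressed at a low level, at 2.48, 4.05 and 7.28 CPM in DMSO_siNT and 3.68, 3.77 and 4.80 CPM in 4OHT_siNT. The senescent values lay inside the growing range, and the log2 fold change of −0.20 ± 0.25 (SE) was not called (edgeR adjusted p = 0.52), and it was −0.26 without DMSO_siNT 4-2V. Under knockdown FMOD was at 0.808, 1.12 and 2.13 CPM, from 10 to 38 counts a library, and all libraries lay below those of 4OHT_siNT. The mean fell from 4.08 ± 0.547 to 1.38 ± 0.541 CPM (SD, n = 6), 33.7% of the senescent level. On the log2 scale this is −1.55 ± 0.28 (SE; edgeR adjusted p = 0.0013). It was −1.87 within VM sets (adjusted p = 0.0035), and with siRNA 4 alone it was −1.09 and not called (adjusted p = 0.24, in the fit that called 4 genes), over a range of 2.93e-06 to 0.241 in all alternatives. Against DMSO_siNT it was −1.75 ± 0.28 (adjusted p = 2.5e-05), −1.81 without DMSO_siNT 4-2V, and with siRNA 4 alone −0.86 and not called (adjusted p = 0.059). The knockdown left BGN and FMOD, on different chromosomes, at similar percentages.

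The promoters of BGN and FMOD, called lower under knockdown, are shown beside that of VCAN, which was not called there. RefSeq (GRCh38.p14) gave an entry for 7 of the 10 genes, each running from 250 bases before to 50 bases from the annotated start, on the strand of the gene. DCN, LUM and HAS2 had none. Both strands were searched for 5 motifs. The AP-1 motif, a site of FOS and JUN dimers, was taken as TGANTCA, and 7.71% of all 35116 promoters hold it. The cyclic AMP response element (CRE) was taken as TGACGTCA, held by 1.85%. The E-box, bound by helix-loop-helix factors, was taken as CACGTG, and it is found in 7.26% of the promoters of the table. The TATA box, which positions the start of transcription in some genes, was taken as TATAAA and is held by 11.5% of them. The GC box, a site of SP-family factors that is common near starts in CpG islands, was taken as GGGCGG and is held by 45% of them. The motifs marked did not overlap. Capitals mark each match to any of them, 5′ to 3′, in the windows chrX:153494730-153495029 (plus), chr1:203351073-203351372 (minus) and chr5:83471494-83471793 (plus):
BGN: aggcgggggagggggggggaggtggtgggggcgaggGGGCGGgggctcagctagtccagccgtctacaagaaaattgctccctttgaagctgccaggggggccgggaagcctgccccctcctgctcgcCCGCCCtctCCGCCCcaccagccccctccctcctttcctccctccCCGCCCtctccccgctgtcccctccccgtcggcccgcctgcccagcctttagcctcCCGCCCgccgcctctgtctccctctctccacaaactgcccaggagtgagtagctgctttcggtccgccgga
FMOD: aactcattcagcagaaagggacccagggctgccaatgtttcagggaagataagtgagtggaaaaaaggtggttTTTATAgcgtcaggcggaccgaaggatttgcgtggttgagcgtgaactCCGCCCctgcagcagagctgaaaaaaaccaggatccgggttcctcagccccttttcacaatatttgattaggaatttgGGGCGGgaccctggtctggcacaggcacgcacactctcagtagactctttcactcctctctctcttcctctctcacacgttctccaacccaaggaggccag
VCAN: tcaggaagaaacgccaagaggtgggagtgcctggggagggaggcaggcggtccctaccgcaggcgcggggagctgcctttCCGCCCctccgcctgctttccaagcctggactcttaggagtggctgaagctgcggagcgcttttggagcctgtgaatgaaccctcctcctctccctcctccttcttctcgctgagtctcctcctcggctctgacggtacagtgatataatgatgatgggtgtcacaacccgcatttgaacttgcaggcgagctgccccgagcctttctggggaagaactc
The BGN window held 5 GC boxes, the nearest ending 15 bases before the start, and had a GC content of 71.7%, against a median of 58.7% over all promoters. The FMOD window held 2 GC boxes and 1 match to the TATA box letters, in the reverse orientation and ending 171 bases before the start, and had a GC content of 52.3%. The VCAN window held 1 GC box and had a GC content of 60.3%. No AP-1 motif, CRE or E-box was in these 3 windows. Among the other entries, HAS1 had a CRE ending 61 bases before the start and HAS3 had an E-box ending 60 bases before it. The FMOD and HAS3 windows lie inside the genes as GENCODE places them, so RefSeq and GENCODE differ there in the annotated start. These matches describe letters in a window and say nothing of binding.

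OGN and PRELP, the remaining SLRPs, were near or under the limit of counting. Osteoglycin is a SLRP of bone and connective tissue. OGN (chromosome 9, 92383268 to 92404696) had 4 counts in all DMSO_siNT libraries together, at most 2 in any, and 0 in every library with 4OHT. A count of 0 allows up to 3 counts in a library, so no fold is given. ASPN and OMD, SLRP genes beside it, had at most 4 counts and 0 counts, and their neighbour ECM2 had at most 8. PRELP binds collagen and perlecan. PRELP (chromosome 1, 203475806 to 203491352, plus strand) had 6 to 35 counts in DMSO_siNT, 0 to 6 counts in 4OHT_siNT and 2 to 4 counts in 4OHT_siSMARCA4. In CPM, DMSO_siNT was at 0.428, 1.13 and 2.49, lowest, median and highest, and the V libraries of that group held the upper 3 values. The growing and senescent ranges overlapped slightly, the lowest of the former being 0.428 CPM and the highest of the latter 0.445 CPM. PRELP did not pass the filter on low counts. With all genes of at least 1 count tested, it had a log2 fold change of −2.48 on 4OHT (edgeR adjusted p = 0.00067) and of 0.23 under knockdown (adjusted p = 0.93). The value on 4OHT rests largely on the V libraries of DMSO_siNT, with a mean of 1.97 CPM. Within VM sets the means were 0.511 CPM in DMSO_siNT and 0.208 CPM in 4OHT_siNT. Without 4-2V the DMSO_siNT mean was 1.15 CPM. OPTC, next to PRELP, had at most 2 counts.

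Versican forms large aggregates with hyaluronan and is common in provisional matrix. VCAN (chromosome 5, 83471618 to 83582303, plus strand) was at 90.6, 162 and 213 CPM in DMSO_siNT and 188, 225 and 297 CPM in 4OHT_siNT. The upper growing libraries reached into the senescent range. The mean rose from 156 ± 51.1 to 231 ± 37.4 CPM (SD, n = 6), 1.48-fold, with a log2 fold change of 0.57 ± 0.22 (SE; edgeR adjusted p = 0.037). The call was lost in 9 of 28 alternatives, among them without DMSO_siNT 4-2V (0.48, adjusted p = 0.051), 4-2VM (adjusted p = 0.057) or 4-3VM (adjusted p = 0.079) and without 4OHT_siNT 2-1VM (adjusted p = 0.083), 2-2VM (adjusted p = 0.051) or 2-3VM (adjusted p = 0.053). The range over all alternatives was 0.389 to 0.881 on the log2 scale, with adjusted p of 0.017 to 0.174, and within VM sets it was 0.62 (adjusted p = 0.042, or 0.056 with the unlabelled library added). Under knockdown VCAN was at 109, 195 and 292 CPM, from below the 4OHT_siNT range to within it. The log2 fold change of −0.21 ± 0.22 (SE) was not called (adjusted p = 0.60). The exons of VCAN overlap the antisense gene VCAN-AS1, and whether the counting used strand is not stated.

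HAS2 is the main hyaluronan synthase of fibroblasts and makes long chains. HAS2 (chromosome 8, minus strand) was at 13.6, 24.7 and 34.1 CPM in DMSO_siNT. It was at 23.8, 27.4 and 30.6 CPM in 4OHT_siNT and at 23.5, 32.02 and 37.3 CPM under knockdown. The 3 ranges overlapped. The log2 fold change on 4OHT was 0.21 ± 0.18 (SE; edgeR adjusted p = 0.35), or 0.099 without DMSO_siNT 4-2V, and that under knockdown was 0.22 ± 0.18 (SE; adjusted p = 0.50). The difference between knockdown and growing cells was 0.43 ± 0.18 (SE; adjusted p = 0.060), and it depended on the set. It was 1.02 within V sets (adjusted p = 0.033), −0.16 within VM sets (adjusted p = 0.44) and, without DMSO_siNT 4-2V, 0.31 (adjusted p = 0.096), over a range of 0.00618 to 0.651 in all alternatives. It was called without DMSO_siNT 4-2VM (0.55, adjusted p = 0.016) or 4-3VM (0.51, adjusted p = 0.034) and without the knockdown library 4-2VM (0.50, adjusted p = 0.034). In DMSO_siNT the V libraries of HAS2 ran from 13.6 to 23.8 CPM and the VM libraries from 25.6 to 34.1 CPM. The lowest V value was that of 4-2V, which the fit within V sets includes, and the other V libraries were at 15.2 and 23.8 CPM. HAS2-AS1, the antisense RNA that overlaps HAS2, was at 1.83 ± 1.63 CPM in DMSO_siNT, 2.91 ± 0.849 CPM in 4OHT_siNT and 3.20 ± 0.518 CPM under knockdown (SD, n = 6). It was not called in either step (0.73, adjusted p = 0.099, and 0.14, adjusted p = 0.86). Its DMSO_siNT mean rests on 4-2V, at 5.02 CPM against 0.576 to 1.97 CPM in the other 5 libraries, which average 1.19 CPM. Without that library HAS2-AS1 was called higher on 4OHT, by 1.28 ± 0.27 on the log2 scale (SE; adjusted p = 0.00034). If the counting ignored strand, reads in the exon bases that HAS2 and HAS2-AS1 share cannot be told apart.

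HAS3, which makes shorter hyaluronan chains, lies at chromosome 16, 69105653 to 69118719, plus strand. It was expressed at a low level, with 10 to 45 counts a library. HAS3 was at 1.16, 2.71 and 3.21 CPM in DMSO_siNT and 0.692, 1.25 and 1.78 CPM in 4OHT_siNT, and only the growing library 4-3VM lay within the senescent range. The mean fell from 2.504 ± 0.775 to 1.19 ± 0.402 CPM (SD, n = 6), to 47.3%, with a log2 fold change of −1.07 ± 0.29 (SE; edgeR adjusted p = 0.0042). It was −1.02 without DMSO_siNT 4-2V and −0.85 within VM sets (adjusted p = 0.046). With siRNA 4 alone the fall was −0.57 and not called (adjusted p = 0.34), over a range of 0.00101 to 0.339 in all alternatives. Under knockdown HAS3 was at 0.897, 1.73 and 2.67 CPM, and the log2 fold change of 0.54 ± 0.29 (SE) was not called (adjusted p = 0.27). Against DMSO_siNT it was −0.53 ± 0.28 (adjusted p = 0.12), −0.50 without DMSO_siNT 4-2V, and −0.68 and called without DMSO_siNT 4-3VM (adjusted p = 0.038). Exons of HAS3 overlap CHTF8 and DERPC on the opposite strand. HAS1 (chromosome 19, 51713112 to 51723991) had 0 counts in all 6 DMSO_siNT libraries, 1 to 4 counts in the 4OHT_siNT libraries and 0 to 4 counts under knockdown. These values are close to the 3 counts that a count of 0 allows, so no fold is given. With all genes of at least 1 count tested, HAS1 was called higher on 4OHT (edgeR adjusted p = 0.006) and not under knockdown (adjusted p = 0.55).

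Levels of different genes were compared only per length, as CPM per kilobase of the canonical transcript of GENCODE version 44. In DMSO_siNT, DCN made up 42.6% ± 7.89 of the summed per-length level of the 7 proteoglycan genes (SD, n = 6), BGN 33.8% ± 13.6 and LUM 17.04% ± 8.60. Without DMSO_siNT 4-2V these shares were 41.4%, 37.9% and 13.9%. DCN and BGN did not differ beyond their spread there. With the length of all annotated exons, which for DCN is longer, DCN made up 29.1% and BGN 41.8%, so the order of these genes depends on the length used. In 4OHT_siNT, BGN made up 71.4% ± 3.35, VCAN 16.97% ± 2.83, LUM 8.001% ± 1.33 and DCN 2.31% ± 0.276 (SD, n = 6). The shares of these 4 genes lay apart by more than their SD. Under knockdown the share of BGN was 48.8% ± 18.1, that of VCAN 34.8% ± 12.4, that of LUM 11.7% ± 5.23 and that of DCN 3.56% ± 1.42 (SD, n = 6), and BGN and VCAN did not differ beyond their spread. FMOD stayed at 0.713% to 1.26% of the pool in the group means. The summed per-length level of the 7 genes was 216 ± 38.4 CPM per kilobase in DMSO_siNT, 111 ± 8.45 in 4OHT_siNT and 49.01 ± 15.8 under knockdown (SD, n = 6). The ranges of the sum did not overlap between any of the groups. Shares add to a fixed total, so the share of VCAN can rise while its level does not. Among the synthases, HAS2 made up 89.1% ± 5.71, 94.7% ± 2.25 and 94.3% ± 1.56 of the summed per-length level in the 3 groups (SD, n = 6). Fewer cells that express a gene and less RNA per cell cannot be told apart in these bulk samples.

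**Figure D4:**
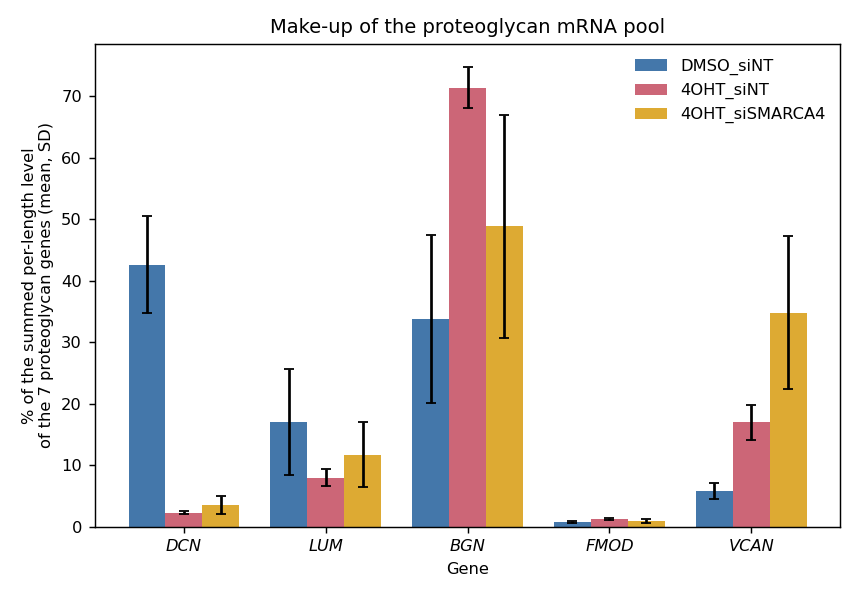
Share of each proteoglycan gene in the summed per-length level of the 7 proteoglycan genes (y axis, percent; bars are means of 6 libraries and error bars the SD) in the 3 groups; OGN and PRELP, with the lowest shares, are not drawn. In DMSO_siNT DCN (42.6%) and BGN (33.8%) lay within their spread, and their order turns with the length of all annotated exons. BGN leads with 71.4% in 4OHT_siNT, and VCAN reaches 34.8% in 4OHT_siSMARCA4.

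Whether the siRNAs gave the same levels was tested in a fit by siRNA and treatment over 13659 genes. Between the SMARCA4 siRNAs 1 gene of all tested was called (0.00732%), and 878 had an unadjusted p under 0.05. None of the members tested was called. DCN was 0.73 ± 0.20 higher with siRNA 2 than with siRNA 4 on the log2 scale (SE; edgeR adjusted p = 0.38) and LUM was 0.97 ± 0.28 higher (adjusted p = 0.42). BGN went the other way, at −1.08 ± 0.44 (adjusted p = 0.68), and so did FMOD, at −0.79 ± 0.30 (adjusted p = 0.66). In single libraries DCN under siRNA 2 was at 11.6, 13.9 and 15.5 CPM and under siRNA 4 at 7.09, 8.02 and 9.90 CPM, which did not overlap. LUM was at 17.5, 19.2 and 20.04 CPM under siRNA 2 and at 7.09, 8.13 and 14.1 CPM under siRNA 4, also without overlap. The share of all genes without overlap between the siRNAs was not counted, so this separation is only a description. SMARCA4 itself differed by −0.053 (adjusted p = 0.98). The non-targeting siRNAs differed in 0.0732% of genes on 4OHT and in 0.0512% in DMSO, with no member called. In DMSO the members with the lowest adjusted p were FMOD (0.93 ± 0.25, adjusted p = 0.063) and VCAN (0.79 ± 0.23, adjusted p = 0.064), and BGN differed by 0.98 ± 0.43 (adjusted p = 0.15). The siRNA 4 arm in DMSO includes 4-2V, whose ESR1 level goes against its label. BGN was at 57.6 CPM in 4-2V and at 156 and 140 CPM in 4-2VM and 4-3VM. In the same order, VCAN was at 102, 148 and 90.6 CPM and FMOD at 3.47, 3.73 and 2.48 CPM. The difference between the knockdown changes, siRNA 2 minus siRNA 4, was called for 0.0146% of genes and for no member. It was 0.86 ± 0.28 for DCN (adjusted p = 0.39) and −1.05 ± 0.39 for FMOD (adjusted p = 0.55). At 3 libraries an arm, these p-values do not show that the siRNAs acted alike.

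The genes around the members were taken from lists by role, with each count of calls read against the same comparison over all genes, whose median log2 fold change was −0.053 on 4OHT and 0.010 under knockdown. Over all genes 23.9% were called higher and 28.9% lower on 4OHT, and 4.99% higher and 5.65% lower under knockdown. Without DMSO_siNT 4-2V these were 27.9% and 30.3% on 4OHT and 11.7% and 12.9% under knockdown, no list gene called in either comparison lost its call, and the counts of the lists for which no such value is given moved by at most 1 gene in each direction. Of 11 other SLRP genes 3 were tested. On 4OHT, podocan (PODN) fell by 3.18 ± 0.40 and tsukushi (TSKU) rose by 0.82 ± 0.13 on the log2 scale (SE; median of the list −0.20), and under knockdown none was called (median −0.31). Of 17 lectican, hyaluronan-binding and link protein genes 7 were tested, with 4 higher and 2 lower on 4OHT (median 0.39) and 1 lower under knockdown (median −0.20). TNFAIP6, which moves heavy chains onto hyaluronan, rose by 2.85 ± 0.21 and the receptor CD44 by 0.39 ± 0.13. HMMR, a hyaluronan-binding protein of the mitotic spindle, changed by −4.52 ± 0.31. The others called on 4OHT were BCAN and HAPLN4, higher, and ITIH3, lower, and the gene lower under knockdown was HAPLN4 (−0.93 ± 0.26, edgeR adjusted p = 0.028). These 3 lay below the expression limit for named genes and were chosen after their values were seen. Aggrecan (ACAN), also named after its values were seen, failed the filter. It had at most 59 counts in a DMSO_siNT library and 0 counts in every 4OHT_siNT library. Without DMSO_siNT 4-2V, ACAN was tested and called lower on 4OHT (edgeR adjusted p = 4.2e-07). The list then had 4 higher and 3 lower on 4OHT (median 0.22).

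Of 21 cell-surface and heparan sulfate proteoglycan genes 17 were tested, with 8 lower and 2 higher on 4OHT (median −0.46), where 52.8% of all genes were called. Without DMSO_siNT 4-2V, 12 were lower and 2 higher on 4OHT, and 7 lower and 2 higher under knockdown. Perlecan (HSPG2) changed by −2.12 ± 0.31, serglycin (SRGN) by −2.21 ± 0.31 and glypican-4 (GPC4) by −1.88 ± 0.42, whereas endocan (ESM1) rose by 2.59 ± 0.28 on the log2 scale (SE). Under knockdown 4 were lower and 2 higher (median −0.28). ESM1 rose further, by 2.31 ± 0.24 (adjusted p = 1.3e-05), and TGFBR3, the TGF-β co-receptor betaglycan, by 0.86 ± 0.19. SPOCK1, a testican, was at −0.997 ± 0.239, glypican-6 (GPC6) at −0.62 ± 0.15, and syndecans 1 and 3 (SDC1 and SDC3) were at −0.59 ± 0.17 and −0.60 ± 0.13.

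Of 13 genes that supply UDP-sugars and sulfate, all were tested, with 4 higher and 4 lower on 4OHT (median 0.094). GFPT2, which starts the hexosamine pathway, rose by 3.62 ± 0.24 and the Golgi sugar transporter SLC35D1 by 1.07 ± 0.13, and UXS1 and GFPT1 were the others higher. SLC35D2 (−0.68 ± 0.14), UAP1 (−0.64 ± 0.09), UGP2 and UGDH were lower. Under knockdown GNPNAT1 rose by 0.55 ± 0.10 and PAPSS1 changed by −0.62 ± 0.17 (median −0.014). Of 22 genes for the linker and for chondroitin or dermatan sulfate 20 were tested, with 7 higher and 3 lower on 4OHT (median 0.12), where 23.9% of all genes were higher and 28.9% lower. The sulfotransferase CHST11 rose by 3.15 ± 0.19, CSGALNACT2, which starts chondroitin chains, by 1.96 ± 0.10 and CSGALNACT1 by 1.12 ± 0.17. The lower genes were DSEL (−1.82 ± 0.17), an epimerase for dermatan sulfate, XYLT1 and CHST14. Under knockdown CSGALNACT2 rose by 0.58 ± 0.10 and CHSY3 changed by −0.98 ± 0.31 (median −0.11). Without DMSO_siNT 4-2V, 1 was higher and 5 were lower under knockdown.

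Of 10 hyaluronan breakdown genes 7 were tested, with 2 higher and 1 lower on 4OHT (median 0.19). CEMIP, a hyaluronan-degrading protein, changed by −4.23 ± 0.45, whereas CEMIP2 rose by 1.57 ± 0.17 and HYAL3 by 0.76 ± 0.14. Under knockdown the lysosomal hexosaminidase subunit HEXA rose by 0.66 ± 0.10 (edgeR adjusted p = 0.00037; median of the list 0.19). Of 9 proteoglycan-cleaving ADAMTS proteases 6 were tested, with 2 higher and 3 lower on 4OHT (median −0.35). ADAMTS4 rose by 2.72 ± 0.29 and ADAMTS9 by 0.89 ± 0.30, whereas ADAMTS15 changed by −3.43 ± 0.40, ADAMTS1 by −0.98 ± 0.12 and ADAMTS8 was also lower. Under knockdown ADAMTS5 rose by 1.09 ± 0.19 (adjusted p = 0.0012) and ADAMTS1 changed by −0.41 ± 0.12 (median −0.40), with 3 genes lower without DMSO_siNT 4-2V.

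**Figure D5:**
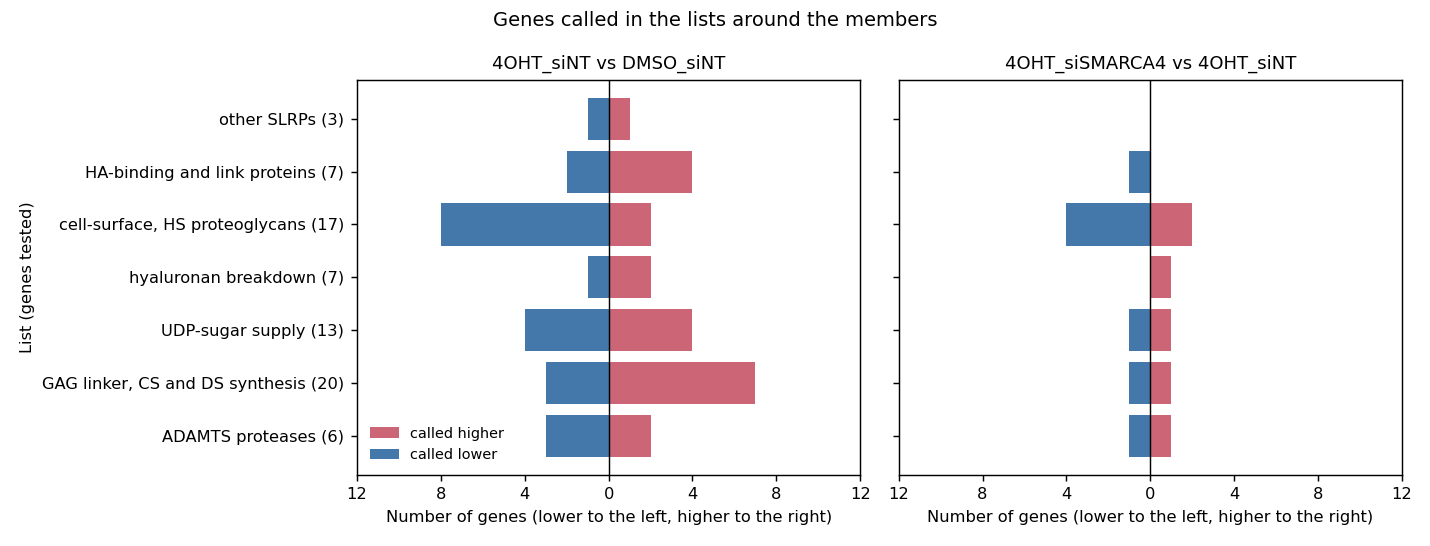
Number of genes called lower (left, blue) and higher (right, red) in 7 lists around the members, on 4OHT and under knockdown, with the number tested in brackets. On 4OHT the cell-surface and heparan sulfate proteoglycans had 8 lower and 2 higher, and chondroitin and dermatan sulfate synthesis 7 higher and 3 lower.

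The fibroblast label was checked with 14 markers, whose summed level was 17185 to 41367 CPM in DMSO_siNT, 29067 to 40721 CPM in 4OHT_siNT and 18788 to 28832 CPM in 4OHT_siSMARCA4. VIM, the main intermediate filament of fibroblasts, did not pass the test in either step (0.095 and −0.028 on the log2 scale). Of the 13 markers tested, 4 were higher and 4 lower on 4OHT (median −0.26), and 8 were lower under knockdown (median −0.88). Over all genes 23.9% were higher and 28.9% lower on 4OHT, and 5.65% lower under knockdown. Without DMSO_siNT 4-2V, 5 markers were higher and 6 lower on 4OHT (median 0.0017). The 8 included the collagens COL1A1 (−1.42 ± 0.28) and COL1A2 (−1.46 ± 0.24), PDGFRB (−1.24 ± 0.22) and THY1 (−1.12 ± 0.21). Their part in the values of BGN and FMOD was not tested. Of 9 epithelial markers, CDH1, KRT5, SFTPC and SFTPB had at most 3 counts in every library. The summed level fell from 107 to 151 CPM in DMSO_siNT to 65.1 to 81.9 CPM in 4OHT_siNT and 35.9 to 58.2 CPM under knockdown, and KRT19 changed by −5.04 ± 0.23 on 4OHT. On 4OHT 3 of 4 tested epithelial markers were lower, and under knockdown 1. The 6 endothelial markers summed to at most 16.3 CPM in any library, and VWF and CLDN5 were higher on 4OHT. Among the immune markers, CD3E, LYZ and NKG7 had at most 3 counts in every library, and the only one tested, CD68, was not called. The part of these markers in the results was not tested.

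The genes most like each member over the 18 libraries were found by Pearson correlation of log2 CPM among 11508 non-member genes with a mean log2 CPM above 1. The libraries fall into the 3 groups, which the points of a correlation share, so it is a description. DCN was most like FZD2 (r = 0.989) and PTGER2 (0.989), and LUM was most like S100A4 (0.978) and PRSS35 (0.968). BGN was most like SCUBE3 (0.979) and TNS1 (0.969). SCUBE3 was at 52.7 CPM in DMSO_siNT, 59.4 CPM in 4OHT_siNT and 19.96 CPM under knockdown. FMOD was most like OSBPL7 (0.959) and ACSS3 (0.942). VCAN (DMXL2 and PIK3R3, both at 0.85), HAS2 (HMGA2 and VPS37A, both at 0.83) and HAS3 (GPRC5B at 0.816 and SLC25A35 at 0.815) had no gene above 0.86.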

How the data were processed

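RNA was sequenced from IMR90 ER:RAS cells, and the authors deposited a table of raw counts per gene for 28266 genes. Per the submitters' processing notes, STAR 2.7.8a, DESeq2 1.36.0 and hg38 were used; the counting program, and whether it used strand, are not given in the sources used here, although the libraries were strand-specific. The 36 columns are 18 libraries of 2 lanes each, which were summed. The labels name 29 samples, of which 17 matched a library and 12 were not analysed here, and 1 library without a sample title was used by the group and siRNA in its column name, which also gives set 1VM.

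Genes passed filterByExpr at a minimum count of 10, which left 13136 genes with 99.9% of the counts. Library sizes were scaled by TMM (factors from 0.868 to 1.05), and the groups were compared with edgeR's quasi-likelihood test (edgeR 4.0.16, limma 3.58.1, R 4.3.3) and Benjamini-Hochberg adjustment in a fit of all 3 groups. The common biological coefficient of variation was 23.3%. The SE was derived from the F statistic. The siRNAs were compared in a fit by group and siRNA. Log2 CPM used a prior count of 2, and levels per length used the canonical transcript of GENCODE version 44. The fit was tested on simulated data. Over 45 pairs of libraries within groups, chi-square over degrees of freedom ran from 2.33 to 315, so no library was counted as a duplicate. A count of 0 was read as up to 3 counts, which covers counting error only.

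Alternatives were DESeq2 1.42.0 and its size factors, other count filters, a 2-fold limit, the set as a block, single sets or siRNAs, only the groups compared, and each library left out. The VM sets with the unlabelled library, the V sets alone, the counts of members between siRNAs, the length of all annotated exons and the lists and shares without DMSO_siNT 4-2V were added after seeing the data. The members and lists were chosen with earlier results of these data known. Named were all members, SMARCA4, cluster neighbours, the 2 genes most like each member, and at most 4 called genes a list and comparison with the largest change and a mean log2 CPM above 1. UXS1, GFPT1, UGP2, UGDH, XYLT1, CHST14, SDC1, SDC3, ADAMTS8, VIM, CLDN5 and CD68 were named outside that rule, after their values were seen.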

Additional observations from a re-analysis of the deposited data

Results flagged for a closer look

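BGN in 4OHT_siNT had a value far from the others, in library 4-2VM, at 229 CPM against 172 to 190.4 CPM in the other 5 libraries. Its gap to the next library was 0.649 of the range of the group on the log2 scale, above the critical value of Dixon's test for 6 values. Over 21 sets of 6 values examined, 1 stood out so, and chance gives about 1.05.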

How the results depend on the processing

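Over 680 alternative values of the log2 fold changes of the 7 members and SMARCA4, 635 kept their direction and side of the threshold, 23 lost the call, 11 gained it and 11 changed sign. None of the values that changed sign was called in the original fit. These were BGN on 4OHT within VM sets (−0.188), with the unlabelled library added to them (−0.19), with siRNA 2 only (−0.382) and without DMSO_siNT 4-2V (−0.0958, the lowest of the leave-outs, which reached 0.383 without DMSO_siNT 2-2VM), and FMOD on 4OHT with siRNA 4 only (0.239) and with the block (0.166). For HAS2 they were 4OHT within VM sets (−0.122) and with the unlabelled library (−0.124), knockdown within VM sets (−0.0402), and knockdown against DMSO_siNT within VM sets (−0.162) and with the unlabelled library (−0.0838).

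Whether the set label pairs the libraries was not settled. Of 15 same-set pairs of libraries of different groups, 5 had a correlation of deviations above 0.1 (−0.286 to 0.299, median 0.035). Of 93 pairs from different sets and groups, 27 did (−0.298 to 0.290, median −0.00084). So few same-set pairs cannot exclude a pairing by set. With the set as a replicate block, which drops the unlabelled library, 4356 genes were called on 4OHT in place of 6935, and under knockdown 236 in place of 1397, with 0 members in place of 3 (adjusted p of BGN 0.132, FMOD 0.0539, DCN 0.0906).

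Genes called on 4OHT were 2822 with a 2-fold limit. Under knockdown they were 2858 within VM sets, 4064 with the unlabelled library, 3405 with only the groups compared, 3429 with siRNA 2, 4 with siRNA 4 (0 members) and 461 with a 2-fold limit. Leaving out single libraries gave 923 (without the unlabelled library) to 3269 (without DMSO_siNT 4-2V). For knockdown against DMSO_siNT they were 6635, and 2732 within V sets, 4119 with siRNA 4 (2 members in place of 4) and 2820 with a 2-fold limit.

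Between SMARCA4 siRNAs 1 gene was called, 51 with DESeq2, 2 within VM sets and 0 to 54 with libraries left out. Between the non-targeting siRNAs on 4OHT these counts were 10, 204, 1328 and 1 to 586. In DMSO they were 7, 1812, 272 and 1 to 4384 (members 0, 2, 2 and 0 to 3, the last without DMSO_siNT 4-2VM), and for the difference between knockdown changes 2, 72, 19 and 0 to 101. The cause of these shifts was not tested. FMOD, HAS3 and the members that failed the filter rest on few counts.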
